A study of Mus musculus with 8 samples.

Results

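The response of KLF2+ CD4 T cells to stimulation was read from the 4 KLF2+ libraries of an 8-library mouse RNA-seq series. It was chosen by sample label: stimulated KLF2+ libraries were set against unstimulated KLF2+ libraries, each group with 2 replicates, for all genes. Of 25124 genes in the table, 19146 passed the filter on low counts and were tested. Spleen cells came from mice carrying a KLF2 reporter (GFP) together with a FOXP3 reporter (RFP), and FOXP3-negative CD44hi CD4 cells were sorted by KLF2 reporter signal. The sorted KLF2+ cells stayed in culture for 48 h, either left without stimulus or given anti-CD3 at 2.5 micrograms/mL together with anti-CD28 at 1.25 micrograms/mL. KLF2- cells sorted from the same kind of mice and treated in the same way gave the other 4 libraries. The labels do not say how many animals were pooled, nor whether replicates were separate animals or cultures. The spread behind each p-value is therefore that of these libraries and may be technical.

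Anti-CD3 binds the CD3 chains of the T cell receptor, and anti-CD28 engages its main costimulatory receptor, so that both together stand in for an antigen-presenting cell. Signals from these receptors reach NFAT, NF-kappaB and AP-1 factors, which turn on cytokine and receptor genes. Over the following days a CD4 T cell enlarges, raises its metabolism and protein synthesis, and divides. The factor KLF2 is high in resting T cells, where it turns on genes that let a cell leave lymphoid tissue, and T cell receptor signals turn it down.

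The KLF2+ libraries differed in quality along the same line as the groups. Exon reads came to 8.27 M and 17.8 M (M, mega) in the unstimulated libraries and to 21.03 M and 36.6 M in the stimulated ones. The share of aligned tags that fell in exons was 23.6% and 43.9% without stimulus and 62% and 80.3% with it. Background was measured over 1464 olfactory and vomeronasal receptor genes, which T cells are not known to use. At the read density of those genes, background would make up 7.06% and 2.61% of exon reads in the unstimulated libraries, against 1.24% and 0.401% in the stimulated ones. A weakly expressed gene can therefore come out lower in stimulated cells because background was lower there. For that reason main results are given beside a second fit, in which this background was subtracted from every gene by its exon length. That fit also took its TMM factors from genes of at least 50 CPM, so a value after background subtraction differs from the main one in both respects. In abundant genes, where little is subtracted, the change comes with the scaling: the log2 fold change of Slc1a5, at 457 to 586 CPM, was 0.12 in the main fit, -0.38 with that scaling alone and -0.36 with subtraction as well. Levels below are in CPM, exon reads put on 1 depth by TMM scaling, and differences are log2 fold changes of stimulated over unstimulated cells with their standard errors. A gene was called at an adjusted p under 0.05 by edgeR's quasi-likelihood test.

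By that test 3771 genes (19.7%) were higher and 3325 (17.4%) lower after stimulation, so that 37.1% of genes were called in all. After background subtraction 2068 of 15292 genes (13.5%) were higher and 2312 (15.1%) lower. Both fits called 2029 genes higher (13.3%) and 1517 lower (9.92%), with the same sign. Among the 9675 genes of at least 10 CPM, 1931 were higher (20%) and 710 lower (7.34%) in both fits, and at least 4-fold changes numbered 363 upward and 80 downward. In the main fit 77% of the genes called lower lay below 10 CPM, against 5.52% of those called higher. Shares over all genes, given beside gene lists below, are therefore not matched for expression. Where a list has none beside it, the shares in the main fit are the 19.7% and 17.4% given above. The split depends on the scaling: with TMM factors taken only from genes of at least 50 CPM, 2144 genes were higher and 6111 lower. The median log2 fold change over all genes tested was -0.25 with the main scaling, -0.76 with that one and -0.19 after background subtraction. Leaving out unstimulated KLF2+ replicate 1 left 1410 genes higher and 687 lower, and leaving out stimulated KLF2+ replicate 2 left 1850 and 577. Without unstimulated KLF2- replicate 3 or 4, which share in the estimate of spread, 4259 and 4193 genes were called in all. Those KLF2+ libraries, the shallowest and the deepest of the 4, are written U1 (unstimulated replicate 1) and S2 (stimulated replicate 2) where gene groups are counted without them.

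**Figure D1:**
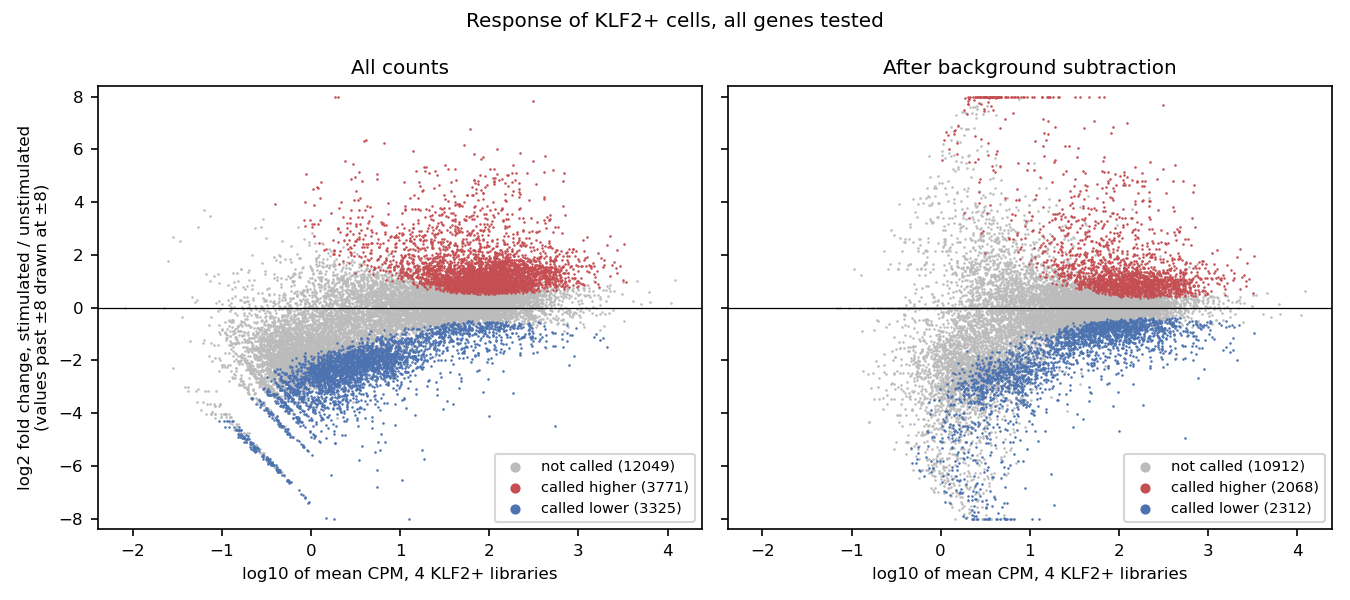
Log2 fold change of stimulated over unstimulated KLF2+ cells (vertical axis) against the log10 of mean CPM (horizontal axis) for each gene tested that had reads in the KLF2+ libraries, before (left) and after (right) background subtraction. Red points were called higher (3771 left, 2068 right) and blue points lower (3325 left, 2312 right). In the left panel 77% of the blue points lie below 10 CPM.

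Among the genes with the largest increases were those of 4 secreted or surface proteins known from effector lymphocytes. Gzma, the serine protease granzyme A, was at 3.38 and 2.29 CPM without stimulus and at 586 and 659 CPM with it. Its log2 fold change was 7.82 ± 0.94 (adjusted p = 0.00094), and 7.69 ± 1.01 after background subtraction. Il10, an anti-inflammatory cytokine, stood at 1.52 and 1.36 CPM without stimulus and at 92.0 and 115 CPM with it (6.16 ± 0.39, adjusted p = 0.0001). Gzmb, the protease granzyme B, went from 13.2 and 17.5 CPM to 782 and 887 CPM (5.76 ± 0.29, adjusted p = 2.3e-05). These genes were named by a rule that required both stimulated libraries to lie above both unstimulated ones, which held for 35.2% of all genes tested. Replicates of a group lay close together. Tnfrsf8, which encodes CD30, a receptor of the TNF receptor family on activated lymphocytes, read 6.02 and 1.79 CPM without stimulus and 206 and 273 CPM with it (6.00 ± 0.48, adjusted p = 0.00019).

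The other genes named by the same rule, the 8 largest increases among genes of at least 10 CPM called in both fits, belong to different processes. Akr1c18, a steroid dehydrogenase that inactivates progesterone, rose from 1.91 and 0.464 CPM to 139 and 99.3 CPM (6.78 ± 0.64, adjusted p = 0.00034). It has close relatives in its gene family, so reads may be shared among them. Ube2c, the ubiquitin-conjugating enzyme of the anaphase-promoting complex, went from 7.43 and 7.49 CPM to 458 and 408 CPM (5.86 ± 0.87, adjusted p = 0.0021). Ajuba, a LIM domain scaffold protein, was at 3.38 and 1.56 CPM without stimulus and at 138 and 129 CPM with it (5.80 ± 0.68, adjusted p = 0.00085). Dmwd, a gene for a WD repeat protein, was at 0.563 and 0.331 CPM without stimulus and at 26.6 and 27.9 CPM with it (5.95 ± 0.62, adjusted p = 0.00053). Dmwd rested on 5 reads in each unstimulated library. On the mm10 build Gzma lies on chromosome 13 from 113093824 to 113100981 (minus strand), Il10 on chromosome 1 from 131019845 to 131024970 (plus strand), Gzmb on chromosome 14 from 56258836 to 56262334 (minus strand) and Tnfrsf8 on chromosome 4 from 145267132 to 145315164 (minus strand).

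Many of the genes with the largest decreases are known from myeloid cells and basophils. Lyz2, the lysozyme of macrophages and neutrophils, was at 705 and 1376 CPM without stimulus and at 32.7 and 60.4 CPM with it (-4.48 ± 0.53, adjusted p = 0.00085). Lpl, lipoprotein lipase, went from 141 and 233 CPM to 9.29 and 12.02 CPM (-4.13 ± 0.33, adjusted p = 0.00019). Csf1r, the receptor for macrophage growth factor, went from 51.8 and 62.4 CPM to 2.83 and 5.08 CPM (-3.83 ± 0.42, adjusted p = 0.00061). Prss34, a basophil and mast cell protease, went from 36.4 and 31.5 CPM to 0.944 and 0.676 CPM (-5.41 ± 0.49, adjusted p = 0.0003). Slc40a1, the iron exporter ferroportin, fell from 27.0 and 46.1 CPM to 0.604 and 0.742 CPM (-5.73 ± 0.69, adjusted p = 0.00094). Both stimulated libraries lay below both unstimulated ones in each of these genes, which the rule for naming them required. The same held for 40.4% of all genes tested.

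C1qb, a chain of complement C1q made by macrophages, had 14.5 and 36.2 CPM without stimulus, and 2 reads and 1 read in the stimulated libraries. Ngp, a granule protein of neutrophils, had 36.3 and 5.40 CPM without stimulus and 0.491 and 0.0436 CPM with it, with unstimulated replicates far apart. Lyz1, a close copy of Lyz2 whose reads may be shared with it, went from 13.8 and 42.2 CPM to 1.32 and 1.92 CPM. The marker lists of macrophages, neutrophils and other cell types are given further below.

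**Figure D2:**
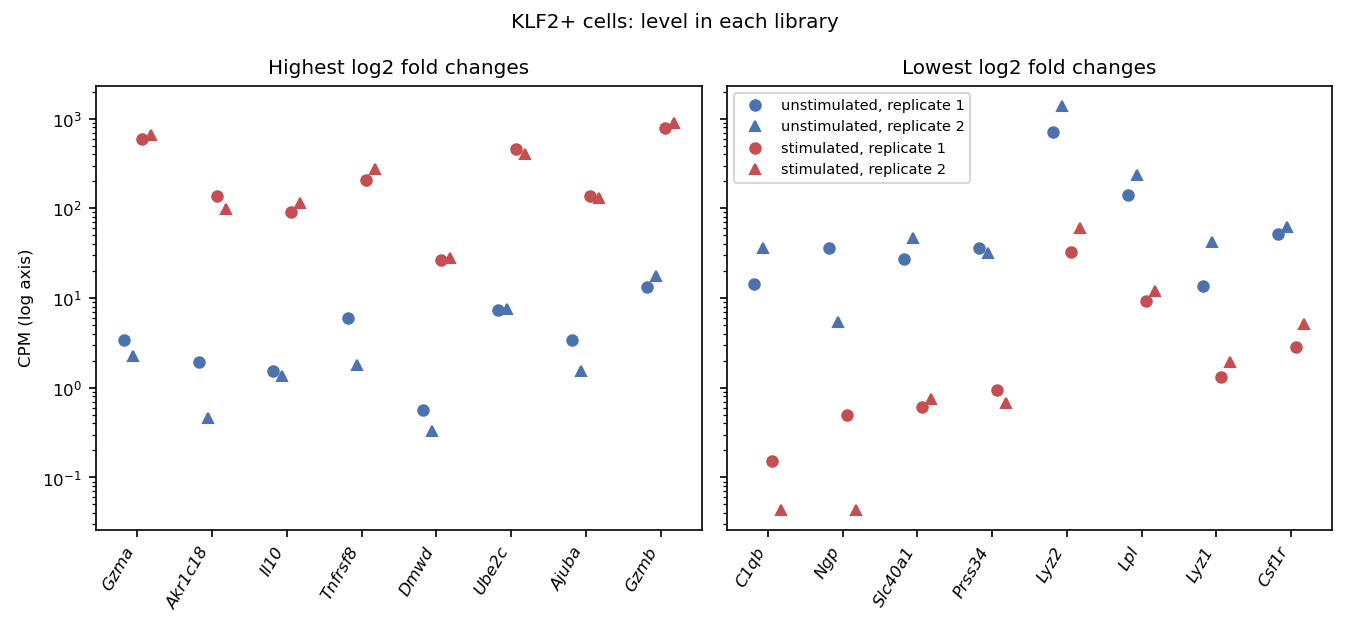
CPM (vertical log axis) in each of the 4 KLF2+ libraries for the 8 genes with the highest (left) and the 8 with the lowest (right) log2 fold change, blue for unstimulated and red for stimulated libraries, circles for replicate 1 and triangles for replicate 2. Gzma stands at 3.38 and 2.29 CPM without stimulus and at 586 and 659 CPM with it, and Lyz2 at 705 and 1376 CPM against 32.7 and 60.4 CPM.

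Among 15 genes of T cell identity 1 was called higher, against 19.7% of all genes. After background subtraction 1 was higher and 4 were lower, against 13.5% and 15.1%. Cd2, an adhesion and costimulatory receptor, rose from 291 and 509 CPM to 924 and 1059 CPM (1.31 ± 0.32, adjusted p = 0.015). Cd3g, a chain of the receptor complex, was at 570 and 1032 CPM without stimulus and at 1020 and 1051 CPM with it. Cd4 was at 815 and 1046 CPM without stimulus and at 745 and 842 CPM with it (-0.23 ± 0.23, adjusted p = 0.43), and after background subtraction it was called lower (-0.71 ± 0.15, adjusted p = 0.015). Cd44, the surface marker used in the sort, was at 183 and 225 CPM and at 142 and 175 CPM (-0.36 ± 0.22, adjusted p = 0.2). It too was called lower after background subtraction (-0.83 ± 0.23, adjusted p = 0.034). Foxp3, the factor of regulatory T cells, whose reporter was used to exclude them, stayed low in every KLF2+ library, at 16.7 and 14.2 CPM without stimulus and 20.4 and 21.3 CPM with it (0.44 ± 0.32, adjusted p = 0.28).

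Of 25 tested genes of T cell receptor signalling, 2 were higher and 3 lower, against 19.7% and 17.4% of all genes. All 25 passed the filter at 10 CPM, and in both fits 1 was higher and 3 were lower. The shares over all genes of at least 10 CPM were 20% and 7.34% in both fits. After background subtraction 1 was higher and 7 were lower, and with the scaling of that fit alone 1 and 10. Without U1, 1 was lower, and without S2 these calls were lost. Lcp2, the adaptor SLP-76, rose from 552 and 715 CPM to 1214 and 1232 CPM (0.95 ± 0.26, adjusted p = 0.023). Sla, an adaptor that limits receptor signalling, went from 317 and 414 CPM to 757 and 713 CPM (1.01 ± 0.35, adjusted p = 0.045) but was not called after background subtraction (adjusted p = 0.14). Dgka, a diacylglycerol kinase that damps receptor signals, fell from 929 and 1225 CPM to 486 and 552 CPM (-1.05 ± 0.32, adjusted p = 0.031). Plcg1, the phospholipase upstream of calcium and diacylglycerol signals, fell by 0.55 ± 0.19 on the log2 scale (adjusted p = 0.043).

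Transcription factors known to be induced by receptor signals were mostly higher. Of 26 tested, 18 rose, against 19.7% of all genes, and 13 of 25 rose after background subtraction. Without U1 the count was 12, and without S2 it was 10. Egr2, a zinc finger factor of the calcium and NFAT pathway, went from 16.1 and 15.5 CPM to 158 and 127 CPM (3.17 ± 0.34, adjusted p = 0.00057). Nr4a1, an orphan nuclear receptor often read as a sign of receptor signalling, went from 17.8 and 18.2 CPM to 94.3 and 182 CPM (2.94 ± 0.31, adjusted p = 0.00057). Batf, an AP-1 family partner of IRF4, went from 71.2 and 97.0 CPM to 396 and 445 CPM (2.32 ± 0.24, adjusted p = 0.00056). In these genes the lowest stimulated library was above the highest unstimulated one, as in 35.2% of all genes tested. Junb, an AP-1 subunit and the list's most abundant gene per length in TPM, went from 227 and 277 CPM to 767 and 984 CPM (1.80 ± 0.24, adjusted p = 0.0013). Among the members not called in the main fit were Fos, Rel, Rela, Egr3, Nr4a2 and Nr4a3.

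Myc, the growth-promoting factor of activated lymphocytes, was at 115 and 112 CPM without stimulus and at 402 and 430 CPM with it. Its rise passed the threshold narrowly (1.87 ± 0.63, adjusted p = 0.043) and was not called after background subtraction (1.39 ± 0.71, adjusted p = 0.17). The standard error was large although KLF2+ replicates lay close together. The spread in the fit is shared with the KLF2- libraries, and their part in this error was not tested.

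Genes that restrain these signals rose as well. Of 25 feedback regulators tested, 14 were higher (11 after background subtraction), against 19.7% of all genes. Spry2 was lower in the main fit. Without U1, 8 were higher. Each of the 4 SOCS family genes tested, which block cytokine receptor kinases, was called higher, from 1.90 for Socs3 to 3.38 for Cish. Socs2 went from 38.8 and 54.4 CPM to 461 and 432 CPM (3.25 ± 0.35, adjusted p = 0.00057). Bcl3, an atypical IkappaB protein, went from 44.4 and 40.4 CPM to 267 and 291 CPM (2.72 ± 0.22, adjusted p = 0.00019). Dusp6, a phosphatase of ERK kinases, went from 6.87 and 12.6 CPM to 77.4 and 69.5 CPM (2.90 ± 0.34, adjusted p = 0.00085). Rgs16, a brake on G protein signals from chemokine receptors, went from 4.67 and 6.96 CPM to 55.2 and 50.2 CPM (3.16 ± 0.37, adjusted p = 0.00085). Nfkbia, the main inhibitor of NF-kappaB and the most abundant member, rose less (0.80 ± 0.28, adjusted p = 0.046), and it was not called after background subtraction (adjusted p = 0.16).

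Among transcription factors of T helper lineages, 12 of 29 tested were higher and 3 lower, against 19.7% and 17.4% of all genes. After background subtraction 8 were higher and 8 lower, against 13.5% and 15.1%. Nfil3, a basic leucine zipper factor, went from 15.3 and 24.1 CPM to 401 and 427 CPM (4.38 ± 0.44, adjusted p = 0.00046). Bhlhe40, a factor that favours cytokine output, went from 73.2 and 91.9 CPM to 516 and 681 CPM (2.86 ± 0.27, adjusted p = 0.00033). Prdm1, which encodes Blimp-1, a factor of effector and IL-10 producing cells, went from 29.6 and 28.6 CPM to 158 and 165 CPM (2.47 ± 0.21, adjusted p = 0.00024). Tox2 rose by a similar fold (3.05 ± 0.23, adjusted p = 0.00017). The members that fell were Ikzf2, Id3 and Rora. Ikzf2, which encodes Helios, went from 69.0 and 45.2 CPM to 26.0 and 16.1 CPM (-1.44 ± 0.30, adjusted p = 0.0082). Id3, an inhibitor of E proteins kept in long-lived memory cells, went from 55.8 and 92.4 CPM to 30.6 and 50.04 CPM (-0.88 ± 0.30, adjusted p = 0.043).

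Cytokine genes of several helper types rose together. Of 25 tested, 15 were higher in the main fit, against 19.7% of all genes. After background subtraction 9 of 22 were higher and 2 lower, against 13.5% and 15.1%. In that fit 5 were higher without U1, and 6 without S2. Il21, a cytokine of follicular help, went from 2.76 and 3.64 CPM to 148 and 173 CPM (5.63 ± 0.35, adjusted p = 8.9e-05). Il4, the defining cytokine of type 2 help, went from 3.88 and 2.15 CPM to 99.9 and 64.4 CPM (4.82 ± 0.43, adjusted p = 0.00028). Ifng, that of type 1 help, went from 15.9 and 24.3 CPM to 176 and 135 CPM (2.94 ± 0.38, adjusted p = 0.0012). Ebi3, a chain shared by IL-27 and IL-35, went from 9.23 and 13.4 CPM to 97.9 and 137 CPM (3.36 ± 0.29, adjusted p = 0.00024). Il5, Il13 and Csf1 were likewise higher in both fits. So was Penk, which is counted in this list but encodes an opioid peptide precursor.

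Other cytokines did not follow. Il2, the T cell growth factor, was at 12.6 and 15.6 CPM without stimulus and at 3.66 and 5.41 CPM with it at this 48 h time point. Il2 was not called (-1.64 ± 0.61, adjusted p = 0.058). Its groups did not overlap, as in 40.4% of all genes tested, where stimulated libraries were likewise lower. Il17a had between 0.331 and 4.08 CPM in these libraries and was not called (adjusted p = 0.13). Ltb, a membrane cytokine that supports lymphoid tissue and the most abundant gene of the list per length, was at 800 and 1138 CPM and at 491 and 662 CPM (-0.75 ± 0.27, adjusted p = 0.053), and was called lower after background subtraction (-1.22 ± 0.20, adjusted p = 0.0068). Tgfb1, the regulatory cytokine TGF-beta 1, went from 42.7 and 47.7 CPM to 68.3 and 145 CPM (1.24 ± 0.37, adjusted p = 0.03). The stimulated replicates of Tgfb1 differed by more than the groups' nearest libraries did, and the rise was not called after background subtraction (0.79 ± 0.37, adjusted p = 0.14).

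Of 16 chemokine genes tested, 5 rose and 2 fell, against 19.7% and 17.4% of all genes, and after background subtraction 3 were higher and 2 lower. Ccl4 and Ccl3, inflammatory chemokines, went from 5.57 and 6.00 CPM to 102 and 71.9 CPM (3.90 ± 0.36, adjusted p = 0.00031) and from 3.72 and 4.87 CPM to 60.2 and 39.3 CPM (3.52 ± 0.63, adjusted p = 0.0056). The 2 that fell, Ccl6 and Ccl9, are chemokines known from myeloid cells, and Ccl9 fell in the main fit only. Ccl6 went from 40.9 and 83.5 CPM to 5.32 and 5.32 CPM (-3.55 ± 0.39, adjusted p = 0.00064). Macrophage markers fell in the same libraries, and their part in the change of Ccl6 was not tested. Among granule genes 5 of 16 rose and 2 fell, against 19.7% and 17.4% of all genes. After background subtraction 4 rose and 1 fell. Those that fell in the main fit were Gzmd and Gzme, close copies of other granzyme genes that may share reads. Besides the granzymes Srgn, the proteoglycan that packs them, went from 408 and 674 CPM to 1568 and 1633 CPM (1.56 ± 0.32, adjusted p = 0.0076). Prf1, the pore-forming protein perforin, was not called.

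Of 28 cytokine receptor genes 7 rose and 6 fell, against 19.7% and 17.4% of all genes, and after background subtraction 6 were higher and 8 lower. In both fits 6 rose and 6 fell, against 20% and 7.34% of genes of at least 10 CPM. Il2ra, the high-affinity chain of the IL-2 receptor and a standard activation marker, went from 51.7 and 40.4 CPM to 1154 and 1425 CPM (4.81 ± 0.88, adjusted p = 0.0049). Il12rb2 went from 7.99 and 8.15 CPM to 208 and 230 CPM (4.76 ± 0.29, adjusted p = 8.9e-05), and its partner Il12rb1 from 28.1 and 25.1 CPM to 259 and 254 CPM (3.27 ± 0.46, adjusted p = 0.0017). Il1r2, the decoy receptor for IL-1, went from 7.71 and 5.70 CPM to 97.8 and 154 CPM (4.25 ± 0.49, adjusted p = 0.0008). The shared gamma chain Il2rg was at 1047 and 1536 CPM and at 1521 and 1571 CPM (0.26 ± 0.31, adjusted p = 0.51), and stood at -0.21 after background subtraction and at -0.23 with the scaling of that fit alone.

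The genes of this list that fell included both chains of the IL-18 receptor. Il18r1 and Il18rap fell by 1.39 ± 0.25 (adjusted p = 0.0049) and 0.84 ± 0.24 (adjusted p = 0.025) on the log2 scale. Il6ra went from 98.3 and 116 CPM to 17.7 and 41.4 CPM (-1.85 ± 0.38, adjusted p = 0.0079). Tgfbr2, the ligand-binding receptor for TGF-beta, went from 568 and 586 CPM to 263 and 296 CPM (-1.04 ± 0.24, adjusted p = 0.012). Il10ra fell from 123 and 136 CPM to 84.7 and 91.5 CPM (-0.55 ± 0.18, adjusted p = 0.036), in the same libraries in which Il10 rose. Il17ra was also lower (-0.72 ± 0.24, adjusted p = 0.044).

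Of 16 costimulatory receptor genes, 7 rose and 3 fell, in both fits alike, against 19.7% and 17.4% of all genes in the main fit. Their median log2 fold change was 0.43 in the main fit and -0.04 after background subtraction. Whether the 3 falls were called depended on the libraries in the fit. Tnfrsf4, which encodes OX40, a receptor that prolongs effector survival, went from 69.0 and 102 CPM to 1084 and 1409 CPM (3.87 ± 0.48, adjusted p = 0.001). Tnfrsf9, which encodes 4-1BB, went from 30.7 and 35.5 CPM to 228 and 310 CPM (3.02 ± 0.26, adjusted p = 0.00024). The receptors that fell were Cd27, Cd226 and Tnfrsf25. Cd27, a receptor of naive and memory cells, went from 165 and 308 CPM to 113 and 133 CPM (-0.95 ± 0.32, adjusted p = 0.043), Cd226 fell by 0.74 ± 0.22 (adjusted p = 0.027) and Tnfrsf25 by 0.71 ± 0.20 (adjusted p = 0.025) on the log2 scale.

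Of 20 inhibitory receptor genes 11 were higher and 5 lower (7 and 4 after background subtraction), against 19.7% and 17.4% of all genes. Without U1, 7 were higher, and without S2, 1 was lower. Ctla4, which competes with CD28 for its ligands, went from 52.1 and 106 CPM to 520 and 644 CPM (2.88 ± 0.34, adjusted p = 0.00089). Tigit went from 3.55 and 5.57 CPM to 50.8 and 64.6 CPM (3.63 ± 0.35, adjusted p = 0.00042). Lag3, a ligand of MHC class II, went from 1.69 and 1.23 CPM to 14.5 and 39.9 CPM (4.25 ± 0.55, adjusted p = 0.0012), and Havcr2, which encodes TIM-3, rose by 2.78 ± 0.39 (adjusted p = 0.0017). The receptors that fell were Vsir, Nrp1, Cd96, Nt5e and, in the main fit, Cd244a. Vsir, which encodes VISTA, went from 332 and 479 CPM to 165 and 187 CPM (-1.20 ± 0.26, adjusted p = 0.0089). Nrp1, the semaphorin receptor neuropilin 1, went from 301 and 386 CPM to 92.5 and 114 CPM (-1.74 ± 0.32, adjusted p = 0.0048). Cd96 fell by 1.12 ± 0.23 (adjusted p = 0.0075) and Nt5e, which encodes the ecto-enzyme CD73, by 0.69 ± 0.21 (adjusted p = 0.03).

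Genes of the resting state fell. Of 28 tested, 13 were lower in both fits, against 9.92% of all genes, and 18 of 27 were lower after background subtraction. Without S2, 5 were lower in the main fit and 10 after background subtraction. Klf2, the gene by which the cells were sorted, went from 303 and 379 CPM to 93.5 and 139 CPM (-1.55 ± 0.32, adjusted p = 0.0076), and by -2.04 ± 0.37 after background subtraction. Klf3, a related factor, went from 292 and 400 CPM to 93.2 and 106 CPM (-1.80 ± 0.23, adjusted p = 0.0012). Il7r, the receptor chain for the survival cytokine IL-7, went from 1115 and 1428 CPM to 266 and 298 CPM (-2.17 ± 0.28, adjusted p = 0.0012). Tob1, an antiproliferative protein, fell by 1.62 ± 0.26 (adjusted p = 0.0029), and Pik3ip1, an inhibitor of PI3 kinase, by 1.64 ± 0.26 (adjusted p = 0.0029). Tcf7, a factor of naive and memory cells, went from 1772 and 2421 CPM to 966 and 1110 CPM (-1.01 ± 0.29, adjusted p = 0.027). In these genes each stimulated library was below each unstimulated one, as in 40.4% of all genes tested.

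Members of the resting list that went the other way were Satb1 and Sesn3. Satb1, a chromatin organizer of T cells, went from 274 and 284 CPM to 1216 and 1217 CPM (2.12 ± 0.64, adjusted p = 0.03), although it was not called after background subtraction (1.65 ± 0.68, adjusted p = 0.1). Sesn3 rose by 0.95 ± 0.32 (adjusted p = 0.045) and was likewise not called then (adjusted p = 0.2). Slfn2, a quiescence factor and the most abundant member, was at 1410 and 2314 CPM and at 1508 and 1668 CPM (-0.23 ± 0.30, adjusted p = 0.53), and was called lower after background subtraction (-0.69 ± 0.17, adjusted p = 0.022).

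Of 23 homing genes 8 fell, in both fits, and 4 rose, against 17.4% and 19.7% of all genes. After background subtraction 12 were lower and 2 higher, and without S2 the main fit had 4 lower. S1pr1, the sphingosine phosphate receptor that leads T cells out of lymphoid tissue and a known KLF2 target, went from 1103 and 1691 CPM to 312 and 466 CPM (-1.84 ± 0.46, adjusted p = 0.016). The integrin chains Itga4, Itgb1 and Itgb7, the sphingosine phosphate receptor S1pr4 and the chemokine receptors Ccr6 and Ccr10 were lower too. Itga4 went from 496 and 460 CPM to 131 and 158 CPM (-1.73 ± 0.26, adjusted p = 0.0024), and Itgb1 from 2728 and 3480 CPM to 1066 and 1126 CPM (-1.50 ± 0.37, adjusted p = 0.016). Ccr7, the lymph node chemokine receptor, was not called in the main fit (-0.42 ± 0.28, adjusted p = 0.24), and was called lower after background subtraction (-0.88 ± 0.17, adjusted p = 0.011).

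Among the homing genes that rose, the chemokine receptor gene Ccr8 went from 6.53 and 4.08 CPM to 189 and 211 CPM (5.26 ± 0.41, adjusted p = 0.00019). Ccr4 rose in the main fit (1.87 ± 0.47, adjusted p = 0.016) and was not called after background subtraction (adjusted p = 0.076). Itgb2, the shared beta chain of leukocyte integrins, was at 529 and 630 CPM without stimulus and at 1004 and 991 CPM with it (0.78 ± 0.22, adjusted p = 0.024), with an adjusted p of 0.1 after subtraction.

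Mitosis genes were higher in 58 of 62 cases and lower in 1, against 19.7% and 17.4% of all genes, and the same counts after background subtraction were 58 and 2. Their median log2 fold change was 3.80. DNA replication genes were higher in 51 of 53 cases (48 after background subtraction), with a median of 2.44. Leaving out U1 from the background-subtracted fit gave the lowest counts, 37 mitosis genes and 19 replication genes higher. Top2a, the topoisomerase that untangles chromosomes, went from 47.2 and 36.8 CPM to 860 and 682 CPM (4.2 ± 0.64, adjusted p = 0.0024). Mki67, the proliferation antigen Ki-67, went from 24.1 and 16.1 CPM to 215 and 173 CPM (3.28 ± 0.43, adjusted p = 0.0013).

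Several complexes of the replication machinery were called in full. Each of the 6 genes of the MCM helicase, which opens DNA, was called higher, from 2.23 for Mcm6 to 3.44 for Mcm5 on the log2 scale. Each of the 5 subunits of replication factor C, which loads the sliding clamp, was called, from 0.99 for Rfc1 to 3.43 for Rfc4, and each of the 4 GINS genes, from 1.22 for Gins4 to 4.01 for Gins2. Of 6 origin recognition genes, 5 were called, and Orc5 was not, while of 3 genes of replication protein A, which coats single strands, Rpa1 was not called (0.55). Orc1 rose most among the origin recognition genes (3.33 ± 0.32, adjusted p = 0.00039). Mcm10, which helps start the helicase, went from 6.59 and 6.196 CPM to 125 and 118 CPM (4.25 ± 0.29, adjusted p = 0.00015). Pcna, the sliding clamp and the list's most abundant gene per length in TPM, was at 119 and 159 CPM without stimulus and 740 and 650 CPM with it (2.32 ± 0.41, adjusted p = 0.004).

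Mitosis genes rose along the whole course of division. Each of the 11 kinetochore genes was called higher, from 1.81 for Knl1 to 4.90 for Nuf2 on the log2 scale, and so were the 9 genes of the spindle checkpoint and the chromosomal passenger complex, from 1.39 for Bub3 to 5.11 for Birc5. Of 12 mitotic kinesins, motor proteins of the spindle, 11 were called, up to 4.97 for Kif2c. Spc24, a kinetochore protein, had the smallest adjusted p of the list, at 6.87 and 7.12 CPM without stimulus and 156 and 149 CPM with it (4.44 ± 0.22, adjusted p = 2.3e-05). Of 6 condensin genes, which compact chromosomes, 5 were called, up to 4.86 for Ncapg, and Smc4 was not (-0.09). Cdc25b, a phosphatase that activates CDK1, went against the list, from 362 and 454 CPM to 208 and 205 CPM (-0.98 ± 0.28, adjusted p = 0.025).

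Regulators of the step from G1 to S phase mostly rose. Of 21 tested, 18 rose and 1 fell, and 12 rose after background subtraction. Without U1 these counts were 12 and 5. Ccne2, a cyclin of S phase entry, went from 19.8 and 15.6 CPM to 182 and 131 CPM (3.15 ± 0.40, adjusted p = 0.0011), and Cdk4, a G1 kinase, from 131 and 185 CPM to 586 and 581 CPM (1.89 ± 0.35, adjusted p = 0.0052). Of the D cyclins, Ccnd2 and Ccnd3 were higher in both fits while Ccnd1 was lower in the main fit. Of 8 E2F genes 7 were called higher, up to 4.22 for E2f8, but only 3 of them after background subtraction.

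Of 7 CDK inhibitor genes 4 rose and 1 fell, in both fits, against 19.7% and 17.4% of all genes in the main fit. Which of them were called depended on the libraries in the fit. Their median log2 fold change was 0.87 after background subtraction, and 0.48 without U1 and 0.71 without S2 in that fit. Cdkn1b, which encodes p27, the inhibitor of resting lymphocytes, went from 26.7 and 31.0 CPM to 11.7 and 14.7 CPM (-1.12 ± 0.30, adjusted p = 0.021). Cdkn1a, which encodes p21, went from 43.4 and 49.0 CPM to 235 and 251 CPM (2.39 ± 0.45, adjusted p = 0.0052). Cdkn2c, Cdkn2d and Cdkn3 also rose, Cdkn3 by 5.03 ± 0.75 (adjusted p = 0.0023). DNA repair genes were higher in 20 of 25 cases (17 after background subtraction, and 10 in that fit without U1), among them Exo1 (3.47 ± 0.35, adjusted p = 0.00047), a nuclease of mismatch and break repair, and Clspn (3.12 ± 0.34, adjusted p = 0.00062), a checkpoint adaptor at the fork.

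The promoters of these lists were read for known cell cycle motifs in RefSeq windows (GRCm38.p6) of 250 bases before to 50 after each start. The motifs were the core of the cell cycle homology region (CHR), TTTGAA, bound by the DREAM and MuvB complexes of late cell cycle genes, and the E2F forms TTCCCGC and TTGGCGC, along with CCAAT and the E-box CACGTG. Each was searched on both strands. No motif contains another, but the second E2F form can share TTGG with a CCAAT box on the other strand. The table held windows for 53 mitosis genes (58 windows) and 44 replication genes (56 windows). For each list, the 3 genes with the smallest adjusted p among those called higher in both fits, with a single window and a motif in the stretch are printed here, 120 bases before to 30 after the start, to show where the letters stand. Capitals mark the CHR core in the mitosis genes and either E2F form in the replication genes, in either orientation.
Kif15, chr9:122950961-122951110, plus strand: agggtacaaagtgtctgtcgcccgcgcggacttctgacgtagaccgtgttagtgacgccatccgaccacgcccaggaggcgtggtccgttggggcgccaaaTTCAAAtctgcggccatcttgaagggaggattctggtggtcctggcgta
Cenpf, chr1:189688057-189688206, minus strand: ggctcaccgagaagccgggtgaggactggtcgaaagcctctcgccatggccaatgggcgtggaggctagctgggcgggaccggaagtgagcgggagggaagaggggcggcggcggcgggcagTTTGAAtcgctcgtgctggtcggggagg
Ttk, chr9:83834569-83834718, plus strand: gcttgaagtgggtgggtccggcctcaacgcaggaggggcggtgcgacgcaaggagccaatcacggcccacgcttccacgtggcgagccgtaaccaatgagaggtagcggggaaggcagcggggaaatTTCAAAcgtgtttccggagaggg
Rfc3, chr5:151651179-151651328, minus strand: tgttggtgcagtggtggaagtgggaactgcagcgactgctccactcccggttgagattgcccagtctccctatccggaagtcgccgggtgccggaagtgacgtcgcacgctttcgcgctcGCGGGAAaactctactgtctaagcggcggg
Pole2, chr12:69228161-69228310, minus strand: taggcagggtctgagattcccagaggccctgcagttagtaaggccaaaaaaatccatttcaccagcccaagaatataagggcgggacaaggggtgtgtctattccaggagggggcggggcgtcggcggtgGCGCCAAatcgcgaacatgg
Chaf1a, chr17:56040296-56040445, plus strand: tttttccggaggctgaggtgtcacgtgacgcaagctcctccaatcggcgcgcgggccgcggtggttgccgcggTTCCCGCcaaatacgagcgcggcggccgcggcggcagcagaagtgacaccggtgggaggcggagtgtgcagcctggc

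The letters differed between the lists. The CHR core was in 40 of 58 mitosis windows (69%), and in 35 of them within 50 bases of the start (60.3%), while 9 of 56 replication windows (16.1%) and 17.9% of all 32851 windows held it. The first E2F form was in 21 of 56 replication windows (37.5%), against 4 of 58 mitosis windows (6.9%) and 4.6% of all windows. The second E2F form was in 19.6% of replication windows, 15.5% of mitosis windows and 2.45% of all. CCAAT was in 74.1%, 53.6% and 37.4% of mitosis, replication and all windows, and the E-box in 6.9%, 14.3% and 7.15%. These shares are descriptions of letters in windows whose base composition was not matched.

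The same motifs were then set against the response of all genes tested with a window. Of 439 such genes with the first E2F form within 50 bases of the start, 41.9% were higher in stimulated KLF2+ cells, against 20.4% of all 14857 genes with a window. Without the genes of the cell cycle lists the share was 38.8% of 415 genes, against 19.8% of 14728. Higher in both fits were 22.2% of those 415, against 10.2% of the 14728. Expression was not matched in these comparisons, and of all genes of at least 10 CPM 20% were higher in both fits. For the CHR core it was 27.4% of 620 genes, and 22.4% of 580 outside the lists, close to the share of all genes. For the second E2F form it was 34.2% of 228 genes (28.6% of 210 outside the lists), for CCAAT 27.2% of 2405 (25.7% of 2354) and for the E-box 23.6% of 656 (22.8% of 649).

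**Figure D3:**
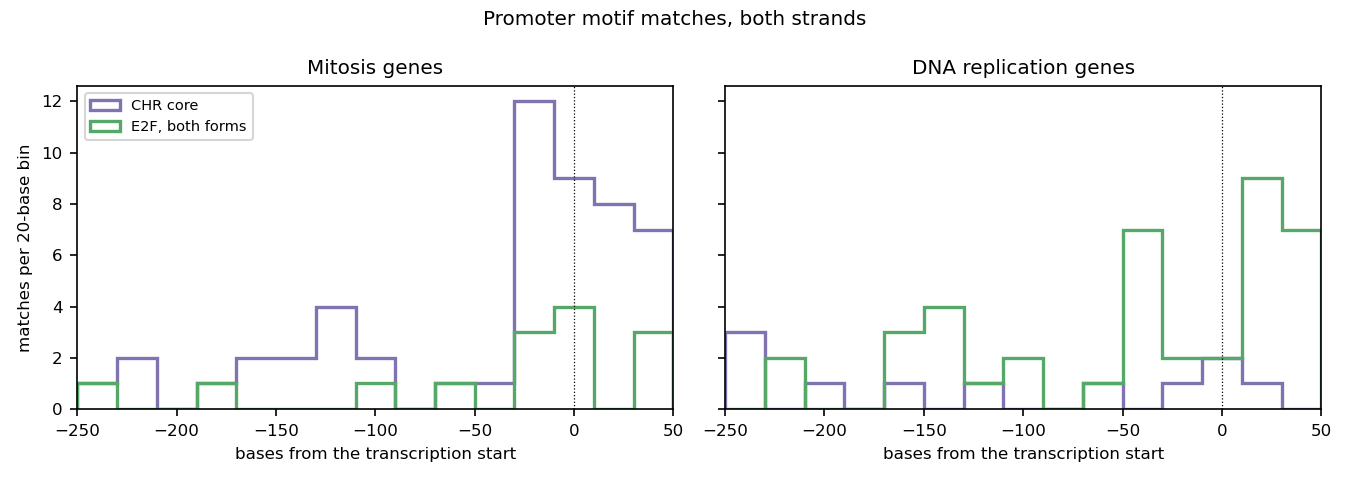
Number of motif matches per 20-base bin (vertical axis) by distance from the transcription start (horizontal axis, bases) in the promoter windows of mitosis genes (left) and DNA replication genes (right), with the CHR core in purple and both E2F forms together in green. In mitosis windows the CHR core collects around the start, where 35 of 58 windows hold it within 50 bases, and in replication windows the E2F forms are the more frequent.

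Most genes on the lists of protein synthesis rose. All 20 tRNA synthetase genes on the list, which charge tRNAs with amino acids, were called higher in both fits, with a median log2 fold change of 1.37, and 0.90 after background subtraction. Cars, which charges cysteine, went from 56.7 and 73.4 CPM to 188 and 218 CPM (1.64 ± 0.22, adjusted p = 0.0014). Without U1, 11 of the 20 were called in the main fit, and 8 in the background-subtracted fit, as without S2. Cytosolic ribosomal protein genes were higher in 82 of 85 cases (76 after background subtraction), with a median of 1.37. Without U1 these counts were 33 and 21, and without S2 they were 62 and 37. Their summed TPM was 24470 and 24420 in the unstimulated and 39030 and 37070 in the stimulated libraries, so that replicates lay far closer together than groups. Rps27 was the small subunit gene not called in the main fit, at -0.23. Ribosomal protein genes have many processed copies in the genome, to which reads may have been shared.

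Mitochondrial ribosome genes were higher in 72 of 78 cases, with a median of 1.14, but in 39 after background subtraction, where the median was 0.70. With the scaling of that fit alone the count was 44. Without U1 it was 21 in the main fit and 3 after background subtraction, and without S2 it was 34 and 4. The largest log2 fold change was that of Mrps6 (2.32 ± 0.30, adjusted p = 0.0012). Of 48 genes of ribosome biogenesis 41 rose (22 after background subtraction, and likewise 22 with its scaling alone), among them Npm1, nucleophosmin, the most abundant per length in TPM, which went from 261 and 349 CPM to 1487 and 1387 CPM (2.24 ± 0.39, adjusted p = 0.004). Without U1 the count was 11, and 2 after background subtraction, and without S2 it was 20 and 4. Of 36 translation initiation genes 29 rose (24 after background subtraction), falling to 11 and 2 without the former library and to 21 and 7 without the latter. They included each of the 13 eIF3 subunits tested in the main fit, from 0.80 for Eif3g to 1.69 for Eif3i. Eif5a, the most abundant of them, went from 702 and 1037 CPM to 2882 and 3145 CPM (1.79 ± 0.45, adjusted p = 0.016).

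Protein folding and turnover genes rose likewise. Of 34 chaperone genes 29 were higher (27 after background subtraction), or 11 and 6 without U1, and 26 and 13 without S2. Each of the 8 subunits of the chaperonin CCT, which folds actin and tubulin, was called, from 1.36 for Cct3 to 1.97 for Tcp1. Hsp90aa1, a heat shock protein of the cytosol, went from 260 and 295 CPM to 1423 and 1162 CPM (2.22 ± 0.32, adjusted p = 0.0018). Pdia6, an oxidoreductase of the endoplasmic reticulum, went from 194 and 264 CPM to 884 and 877 CPM (1.94 ± 0.26, adjusted p = 0.0014). Proteasome genes were higher in 37 of 40 cases (34 after background subtraction), with a median of 1.36, and in 11 and 7 without U1. The 14 core subunits were all called in both fits, while of the 3 inducible immunoproteasome subunits 2 were called in the main fit and 1 after background subtraction.

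**Figure D4:**
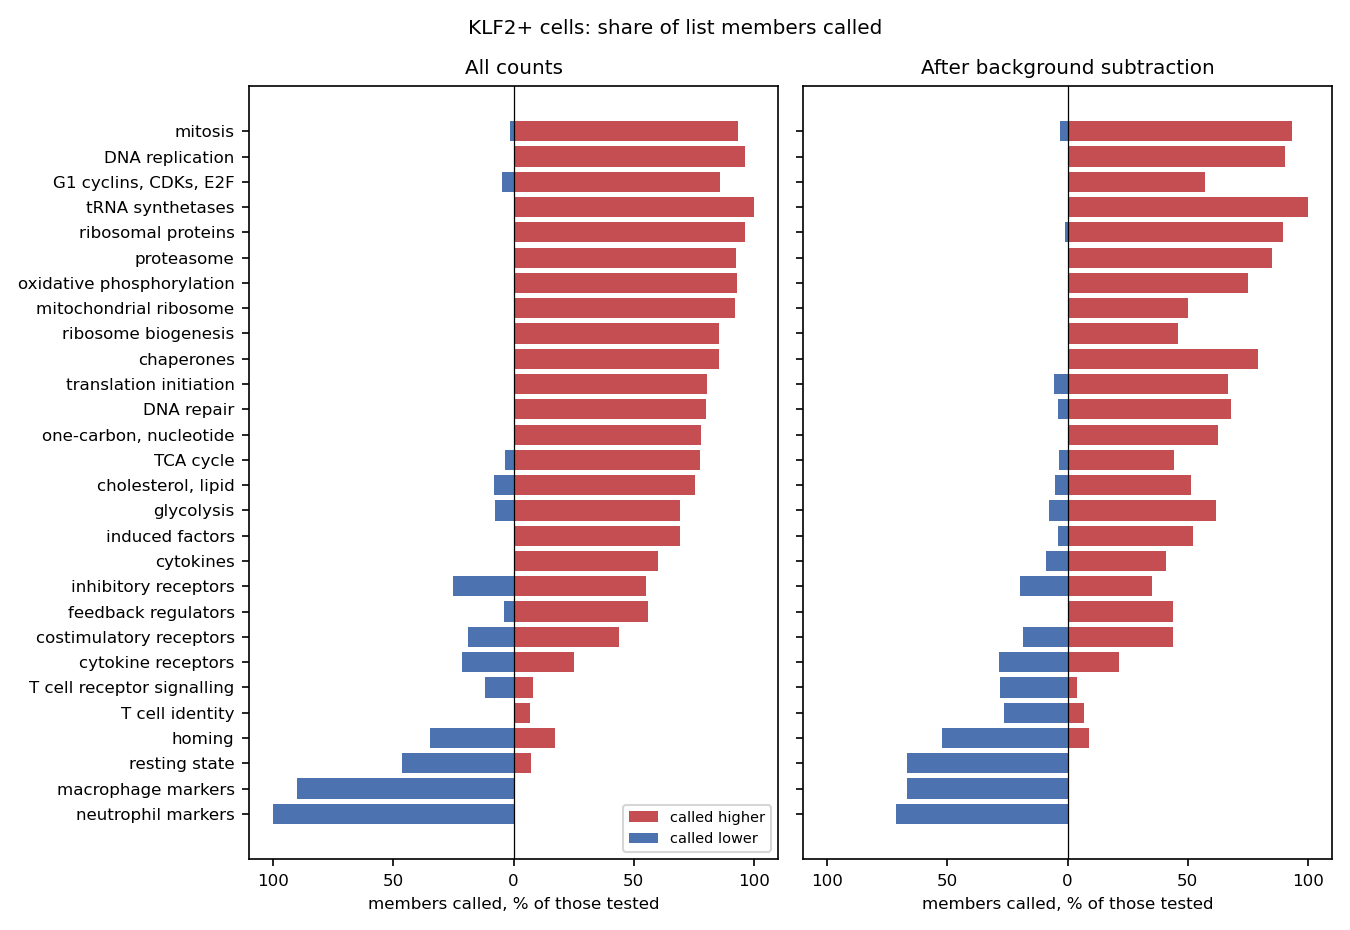
Share of tested members called higher (red, to the right) or lower (blue, to the left) in each gene list, in percent of members tested, before (left panel) and after (right panel) background subtraction. All 20 tRNA synthetases are called higher in both panels, ribosome biogenesis has 41 of 48 on the left and 22 on the right, the same as with the other scaling alone, and macrophage and neutrophil markers are called lower.

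Glucose metabolism genes rose. Of 26 glycolysis genes 18 were higher and 2 lower (16 and 2 after background subtraction). Without U1, 11 and 8 were higher. Their summed TPM was 3369 and 3337 without stimulus and 8382 and 9267 with it. Among the enzymes Tpi1, triosephosphate isomerase, had the largest change, from 98.8 and 128 CPM to 1112 and 1496 CPM (3.52 ± 0.45, adjusted p = 0.0012). The lactate exporter Slc16a3 rose further (3.98 ± 0.59, adjusted p = 0.0021). Gapdh, often used as a reference gene, went from 548 and 665 CPM to 3927 and 3998 CPM (2.71 ± 0.34, adjusted p = 0.0011). Ldha, which makes lactate, went from 851 and 1192 CPM to 5221 and 5667 CPM (2.41 ± 0.44, adjusted p = 0.0049), and Pkm, pyruvate kinase, from 870 and 1125 CPM to 4089 and 4853 CPM (2.16 ± 0.37, adjusted p = 0.0038). In deposited TPM, Ldha rose from a mean of 640 to 2149, among the largest absolute gains outside the ribosome. Gapdh and Ldha have processed copies in the genome, so their reads may be shared.

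Hexokinases, which trap glucose in the cell, moved apart. Hk2 rose from 9.23 and 4.90 CPM to 47.6 and 54.4 CPM (2.87 ± 0.35, adjusted p = 0.001), and Hk3, the hexokinase known from myeloid cells, fell from 17.2 and 16.3 CPM to 3.85 and 3.60 CPM (-2.17 ± 0.41, adjusted p = 0.0057). Pdk1, a kinase that keeps pyruvate out of the TCA cycle, fell by 0.63 ± 0.22 (adjusted p = 0.048) on the log2 scale.

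Mitochondrial energy genes rose by smaller amounts. Oxidative phosphorylation genes were higher in 67 of 72 cases (54 after background subtraction), with medians of 1.30 and 0.85. These counts rest on few libraries: without U1 they were 7 and 4, and without S2 they were 38 and 9. All 15 ATP synthase genes were called in the main fit, from 0.88 for Atp5h to 1.80 for Atp5g1, as were 32 of 36 complex I genes (21 after background subtraction). Atp5b, the catalytic subunit, went from 986 and 1332 CPM to 3673 and 3479 CPM (1.63 ± 0.34, adjusted p = 0.0078). Of 27 TCA cycle genes 21 rose and 1 fell (12 and 1 after background subtraction). Without U1, 8 rose in the main fit and 2 after background subtraction, and without S2, 7 and 4. The gene that fell was Idh1, which works in the cytosol, from 59.7 and 71.4 CPM to 36.97 and 37.65 CPM (-0.81 ± 0.21, adjusted p = 0.017), whereas the mitochondrial enzyme Cs, citrate synthase, rose (1.47 ± 0.27, adjusted p = 0.0051).

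Building blocks for new cells were served by further groups. Of 32 genes of one-carbon and nucleotide metabolism 25 rose (20 after background subtraction), or 9 and 8 without U1 and 21 and 8 without S2. They included each of the 6 genes of serine synthesis and the mitochondrial folate cycle, from 1.67 for Psph to 3.40 for Psat1. Shmt1, which moves one-carbon units in the cytosol, went from 16.6 and 14.8 CPM to 159 and 169 CPM (3.38 ± 0.36, adjusted p = 0.00057), and Impdh2, the rate-limiting enzyme of guanine nucleotide synthesis, from 64.8 and 85.6 CPM to 337 and 330 CPM (2.15 ± 0.23, adjusted p = 0.00057). Tfrc, the transferrin receptor, which brings in iron, went from 73.6 and 55.6 CPM to 665 and 573 CPM (3.26 ± 0.45, adjusted p = 0.0015). Odc1, the first enzyme of polyamine synthesis, went from 128 and 185 CPM to 512 and 700 CPM (1.95 ± 0.28, adjusted p = 0.0018). Of 19 genes of amino acid transport and polyamines 8 rose and 2 fell, Slc7a11 and Slc38a9 (6 and 1 after background subtraction). Slc1a5, a glutamine transporter, was at 457 and 570 CPM and at 530 and 586 CPM (0.12 ± 0.25, adjusted p = 0.7), and its sign followed the scaling, as given above.

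Genes of sterol synthesis rose. Of 37 cholesterol and lipid genes 28 rose and 3 fell (19 and 2 after background subtraction). Without U1, 18 rose in the main fit. Of 20 enzymes that lead from acetyl-CoA to cholesterol 18 were called higher. Idi1 went from 19.5 and 21.2 CPM to 128 and 123 CPM (2.63 ± 0.24, adjusted p = 0.0003), Cyp51 from 71.8 and 68.9 CPM to 432 and 454 CPM (2.65 ± 0.27, adjusted p = 0.00049), and Scd2, a fatty acid desaturase, from 34.6 and 25.9 CPM to 363 and 446 CPM (3.74 ± 0.37, adjusted p = 0.00046). The genes that fell were Abca1, Abcg1 and Mylip. Abcg1, a sterol exporter, fell by 0.85 ± 0.27 (adjusted p = 0.036), and Mylip, which marks the LDL receptor for degradation, fell from 54.9 and 49.3 CPM to 24.8 and 21.2 CPM (-1.18 ± 0.21, adjusted p = 0.0045).

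**Figure D5:**
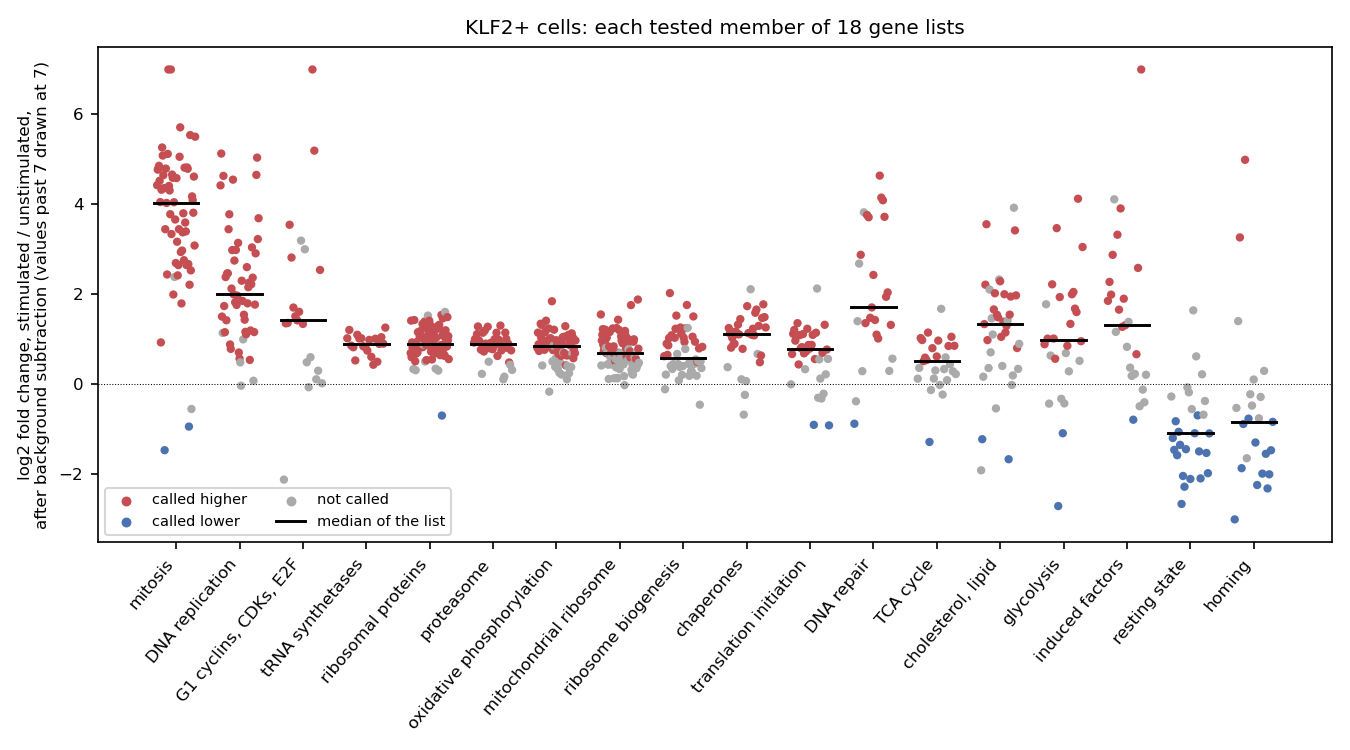
Log2 fold change after background subtraction (vertical axis, values past 7 drawn at 7) of each tested member of 18 gene lists (horizontal axis), red where called higher, blue where called lower and grey where not called, with the list median as a black bar. Mitosis and replication genes have the highest medians of the lists drawn, ribosomal protein genes lie in a narrow band about their median of 0.90, and resting state and homing genes lie mostly below 0.

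Of 20 chromatin regulators tested, 10 rose and 4 fell, against 19.7% and 17.4% of all genes. After background subtraction 7 rose and 4 fell. Those that fell in the main fit were Ezh1, Cbx7, Tet1 and Tet3. Ezh2, the polycomb methyltransferase of dividing cells, went from 105.1 and 184 CPM to 461 and 444 CPM (1.65 ± 0.29, adjusted p = 0.004), while its relative Ezh1 went from 157 and 166 CPM to 88.6 and 93.5 CPM (-0.83 ± 0.18, adjusted p = 0.0086). Cbx7, a reader of the polycomb mark, fell from 171 and 211 CPM to 80.5 and 83.5 CPM (-1.22 ± 0.21, adjusted p = 0.0035). Uhrf1, which guides maintenance DNA methylation, went from 33.8 and 27.8 CPM to 542 and 499 CPM (4.08 ± 0.40, adjusted p = 0.00046), and the DNA demethylase Tet3 fell by 0.68 ± 0.23 (adjusted p = 0.043).

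Survival and death genes were mixed, with 15 of 31 higher and 1 lower, against 19.7% and 17.4% of all genes. After background subtraction 7 were higher and 3 lower, and with the scaling of that fit alone 6 were higher and 5 lower. Casp6, a caspase of the execution phase, rose in both fits (1.82 ± 0.31, adjusted p = 0.0037). Bcl2l11, which encodes the death protein BIM, went from 51.1 and 41.8 CPM to 123 and 98.7 CPM (1.25 ± 0.20, adjusted p = 0.0029), and Bbc3, which encodes PUMA, went from 26.0 and 30.7 CPM to 12.8 and 18.3 CPM (-0.86 ± 0.27, adjusted p = 0.034).

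Interferon-stimulated genes showed no common direction, with 10 of 41 higher and 4 lower in the main fit, against 19.7% and 17.4% of all genes. After background subtraction 1 was higher and 5 were lower, against 13.5% and 15.1%. Gbp2, a guanylate-binding protein, was the member higher in both fits, at 213 and 193 CPM without stimulus and 977 and 890 CPM with it (2.20 ± 0.33, adjusted p = 0.0021). Ifit2 (-1.08 ± 0.22, adjusted p = 0.0076), Oasl2 (-0.91 ± 0.22, adjusted p = 0.014) and Ddx58 (-0.60 ± 0.19, adjusted p = 0.035), of the antiviral group, were lower in both, and Rsad2 was lower in the main fit. Of 8 GIMAP genes, small GTPases of lymphocytes, Gimap7 was called higher (1.52 ± 0.31, adjusted p = 0.007), and after background subtraction 2, Gimap3 and Gimap8, were lower.

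Among genes of cytoskeleton and effector memory, 9 of 28 rose and 1 fell, against 19.7% and 17.4% of all genes, and after background subtraction 9 were higher and 4 lower. Lgals1, the carbohydrate-binding protein galectin 1, went from 66.1 and 89.4 CPM to 895 and 877 CPM (3.51 ± 0.34, adjusted p = 0.00038). The tubulin genes Tubb5 (2.83 ± 0.34, adjusted p = 0.00095) and Tuba1b (2.67 ± 0.44, adjusted p = 0.0033) rose as well. Anxa1, an annexin with anti-inflammatory actions, fell from 40.2 and 64.3 CPM to 19.6 and 24.2 CPM (-1.26 ± 0.26, adjusted p = 0.0074). Tmsb4x, thymosin beta 4, an actin-binding peptide and the most abundant member, was at 7547 and 13150 CPM and at 11860 and 11480 CPM, so that its groups overlapped.

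By absolute change in deposited TPM outside the ribosomal proteins, the largest gains were those of Ppia, Ldha, Gapdh, Ly6a, Pkm and Ptma. Ly6a, which encodes the surface antigen Sca-1, went from 470 and 810 CPM to 2658 and 2647 CPM (2.05 ± 0.33, adjusted p = 0.0029). Ppia, the folding enzyme cyclophilin A, rose by 1.56 ± 0.41 (adjusted p = 0.019) and Ptma, prothymosin alpha, by 1.88 ± 0.39 (adjusted p = 0.0076), both of which have processed copies. Beside Lyz2, the largest losses were those of Ms4a4b, Atp1b3, Itgb1, Tcf7 and Ms4a6b. Ms4a4b, a membrane protein of T cells, went from 1764 and 3159 CPM to 973 and 1118 CPM (-1.24 ± 0.34, adjusted p = 0.022). Atp1b3, a subunit of the sodium pump, went from 2007 and 3213 CPM to 1125 and 1220 CPM (-1.16 ± 0.32, adjusted p = 0.022).

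Markers of macrophages, neutrophils, NK cells and dendritic cells were mostly called lower in the main fit, and 3 of 6 basophil and mast cell markers were. Over all genes 17.4% were lower, and 15.1% after background subtraction. Markers of B cells, plasma cells, red cells and platelets did not separate the groups. In bulk samples fewer cells of a type and less RNA per cell cannot be told apart. Macrophage markers were lower in 9 of 10 cases (6 of 9 after background subtraction), and their summed level was 851 and 1617 CPM without stimulus and 49.0 and 86.0 CPM with it. Neutrophil markers were lower in 7 of 7 cases (5 of 7), with sums of 143 and 62.4 CPM against 5.89 and 6.13 CPM. The unstimulated replicates thus differed from each other in these sums, and both lay above both stimulated libraries. NK markers were lower in 3 of 5 cases (2 of 4 after background subtraction), with sums of 86.6 and 142 CPM against 24.0 and 30.9 CPM. Dendritic cell markers were lower in 4 of 6 cases (3 of 6 after background subtraction), with sums of 61.9 and 59.3 against 28.0 and 23.7 CPM. Basophil and mast cell markers were lower in 3 of 6 cases (2 of 5), with sums of 70.4 and 64.0 against 24.1 and 18.9 CPM. A further mast cell marker, Cma1, did not pass the filter on low counts and went the other way. It had 2.5 and 4.0 reads without stimulus and 53.5 and 40.0 reads with it, not put on 1 depth. No marker on these lists was at 0 in all 4 libraries. The part of these cells in the fall of genes that T cells share with them was not tested.

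Other marker lists showed no such fall. Summed B cell markers were 106 and 195 CPM without stimulus and 128 and 169 CPM with it, and 1 of 6, Cr2, was called lower. Jchain, the joining chain of antibodies, was at 274 and 1010 CPM and at 146 and 299 CPM (adjusted p = 0.31). Erythroid and platelet markers summed to 147 and 54.3 CPM and to 132 and 89.0 CPM. Of the 2 CD8 genes Cd8a was called higher, from 0.113 and 0.398 CPM to 2.45 and 1.33 CPM (2.696 ± 0.88, adjusted p = 0.039), with 1 and 6 reads in the unstimulated libraries. Cd8b1 had 11.3 and 12.6 CPM without stimulus and 24.1 and 21.2 CPM with it (adjusted p = 0.06).

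The KLF2+ response was also tested against that of KLF2- cells, as the difference of the log2 fold changes. By edgeR 35.8% of genes differed in the main fit (20.3% with the KLF2+ value higher and 15.5% lower), and 11.7% after background subtraction (3.83% and 7.89%). The stimulated KLF2- libraries had 12.7% and 7.96% of their tags in exons, with background at 11.4% and 20.1% of exon reads, and their part in this count was not tested. Of the 33 genes with the largest changes or always read, 13 differed in both fits, and they are given among the results for a closer look. The count of genes that differ rests on few libraries: without either unstimulated KLF2- library it was 74 (replicate 3) or 70 (replicate 4), and without unstimulated KLF2+ replicate 1 it was 413.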

How the data were processed

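RNA was sequenced in 8 libraries, of which the 4 KLF2+ libraries (2 per group) carry this comparison. The titles name polyA RNA and the labels a SMARTer stranded pico kit. The submitters' processing notes name STAR 2.7.9, HOMER 4.11, SAMtools and DESeq2 and the build mm10. The deposited estimated counts come in steps of 0.5 and were made by HOMER over exons without depth adjustment, per the file headers. The deposited TPM of a library sum to between 504500 and 523400. Nothing in the sources used here gives the strand setting or read filters, so reads of overlapping or antisense genes cannot be told apart.

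Estimated counts were rounded and fitted over all 8 libraries in edgeR 4.0.16 (R 4.3.3) with filterByExpr, TMM, 1 coefficient per group, the quasi-likelihood F test (4 residual degrees of freedom) and Benjamini-Hochberg adjustment over all genes tested. A standard error is the size of the log2 fold change over the root of its F statistic. Background density over 1683.9 kb of receptor exons was subtracted by exon length, with TMM factors from genes of 50 CPM or more. DESeq2 1.42.0 and limma 3.58.1 on log2(TPM + 1) and log2(TPM + 0.1) were alternatives. The method was tested on simulated data.

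Gene lists and the members named were chosen with earlier results of these data known. Named genes were the 8 largest and 8 smallest log2 fold changes and the 6 largest gains and losses in TPM among genes of at least 10 CPM called in both fits without overlap, up to 4 called members per list by p, members against their list's direction, each list's most abundant member, and genes always read. Smaller groups within lists (such as the MCM helicase) were named after their values were seen.

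Promoter stretches were chosen among genes outside chromosome 18, which was left out. A few genes picked in this way are not reported here.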

Additional observations from a re-analysis of the deposited data

Results flagged for a closer look

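For 13 of the 33 genes with the largest changes or always read, the response of KLF2+ cells differed from that of KLF2- cells by edgeR's test of the difference itself, with and without background subtraction. Values are the KLF2+ minus the KLF2- log2 fold change, and the background-subtracted fit has 1 gene called in all when unstimulated KLF2+ replicate 1 or stimulated KLF2+ replicate 2 is left out.

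Granule, cytokine and receptor genes rose in KLF2+ cells and were not called in KLF2- cells. The KLF2- log2 fold changes of those named here went from -1.36 (Gzma) to 1.33 (Il10). The difference was 9.18 ± 1.19 for Gzma (adjusted p = 0.0067), which was at 29.2 and 16.0 CPM in unstimulated and at 16.3 and 0.436 CPM in stimulated KLF2- cells. It was 5.48 ± 0.38 for Gzmb (adjusted p = 0.0012), 4.83 ± 0.55 for Il10 (adjusted p = 0.0047) and 6.05 ± 0.61 for Tnfrsf8 (adjusted p = 0.0026). Il10 stood at 2.03 and 2.08 CPM in unstimulated and at 7.09 and 3.16 CPM in stimulated KLF2- cells. The cytokine genes Il4 (4.43 ± 0.57, adjusted p = 0.0067) and Ifng (4.00 ± 0.53, adjusted p = 0.0076) differed in the same direction.

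Genes of other cell types fell in KLF2+ cells, where their unstimulated level was higher, and were not called in KLF2- cells. The KLF2- log2 fold changes of those named here went from -0.13 (Prss34) to 0.72 (Ngp). The difference was -5.11 ± 0.79 for Lyz2 (adjusted p = 0.01), which was at 3.196 and 3.40 CPM in unstimulated and at 2.31 and 8.50 CPM in stimulated KLF2- cells. It was -7.25 ± 1.42 for Ngp (adjusted p = 0.016), -5.27 ± 0.62 for Prss34 (adjusted p = 0.0056), -4.82 ± 0.45 for Lpl (adjusted p = 0.0023) and -4.42 ± 0.58 for Csf1r (adjusted p = 0.0073).

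Resting genes also differed. The difference was -1.75 ± 0.45 for Klf2 (adjusted p = 0.024), which was at 41.0 and 65.0 CPM in unstimulated and at 46.6 and 75.7 CPM in stimulated KLF2- cells. It was -1.61 ± 0.39 for Il7r (adjusted p = 0.021). In KLF2- cells the log2 fold changes were 0.20 for Klf2 and -0.56 for Il7r, and neither was called.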

How the results depend on the processing

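Against 3771 genes higher and 3325 lower, there were 2411 and 2036 with genes of at least 10 CPM (4447 in all), 2068 higher with background subtraction (4380 in all), 1557 higher by limma with a pseudocount of 1 (4669 in all), 1751 and 6069 with 0.1, 2144 and 6111 with TMM from genes of at least 50 CPM, and 1505 lower with only the KLF2+ libraries. Leaving out a library gave 2097 to 8971 genes in all, 1410 to 4501 higher and 577 to 4781 lower. Settings added after the data were seen, background subtraction without a KLF2+ library, gave 1019, 1391, 2064 and 3814 in all, 567, 661, 905 and 1201 higher and 358, 824, 1159 and 2613 lower, and with only the KLF2+ libraries 2501 were higher. The difference between responses, 6855 genes, fell to 2168 with genes of at least 10 CPM and to 1793 after background subtraction, and ranged from 70 to 9581 without a library and was 1, 1, 1005 and 2398 with background subtraction and 1 KLF2+ library left out. The cause was not tested.

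With the replicate number as a block, 10851 genes were called (6177 lower), and 10857 for the difference. The labels do not say that a number marks a shared batch, and with 2 pairs the numbers were not taken as pairing, although replicate differences correlated across genes (r = 0.537 over 19146 genes).

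Among genes not called in the main fit, signs crossed 0 in some settings. Slc1a5 was at -0.55 and -0.56 by limma, where the all-gene medians were -0.43 and -0.81. After background subtraction with only the KLF2+ libraries, Slc1a5 was at -0.50 and Il2rg at -0.35. The all-gene median of that last fit was -0.24, near the -0.25 of the main fit. Slfn2 was at 0.21 without unstimulated KLF2+ replicate 2, again not called. The direction of Cr2, a B cell marker called lower, was lost (0.01 after background subtraction without unstimulated KLF2+ replicate 1). Depth limits what can be read from genes of few reads.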
